A study of Eucalyptus camaldulensis with 12 samples.

Results

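PIP2F (Eucgr.K03244), GAMMA-TIP (Eucgr.K02438) and PIP1C (Eucgr.D01836) are 3 aquaporin genes of Eucalyptus camaldulensis leaves, out of 15 aquaporin genes named in the shortened copies of the study's supplementary tables used here (1736 transcripts and 1840 SNPs) and 43180 distinct predicted transcripts counted. They were joined to the counts by scaffold, start and end, and each matched 1 transcript that overlaps no other. Any other aquaporin genes were not analysed here. The names are those of the best Arabidopsis protein matches. The seedlings came from Katherine, Mt Isa and Petford, 3 provenances of contrasting climate. Group C0 is leaf RNA of 5 seedlings per population about to be kept at field capacity, and C1 is RNA of those same seedlings at the end of the experiment. Group S0 is leaf RNA of 10 other seedlings per population before the water deficit, and S1 is RNA of those seedlings after 2 months at 30% of field capacity. Each library is 1 bulk of 2 leaves per seedling, so each group has 3 libraries, 1 per population, and a p-value measures the spread between these bulks. C0 and C1 leaves were picked about 2 months apart, as were S0 and S1 leaves, so seedling and leaf age differ within each pair as well.

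Aquaporins are membrane channels that let water, and in some families small solutes, pass down a gradient. Plasma membrane intrinsic proteins of the PIP2 class conduct water across the cell surface, and those of the PIP1 class often reach it only when paired with a PIP2 partner. Tonoplast intrinsic proteins (TIPs) sit in the vacuolar membrane, where GAMMA-TIP (TIP1;1) is a major water channel of vegetative cells in Arabidopsis. Plants close and open these channels and alter their transcript levels when water is short, in leaves as well as in roots.

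Library totals ranged from 1726793 to 6951584 counts. Values are given as CPM, reads brought to a common library size after TMM scaling over the 12 libraries, and a transcript was called where edgeR's quasi-likelihood test gave a Benjamini-Hochberg adjusted p under 0.01 over all transcripts with at least 10 reads in the libraries compared. The descriptions of the Mt Isa C1 and S0 libraries conflict with their titles, and the groups used here follow the titles. Across transcripts the Mt Isa C1 library correlated at 0.937 to 0.941 with the other C1 libraries and at 0.871 to 0.894 with the S0 libraries. The Mt Isa S0 library correlated at 0.923 to 0.939 with the other S0 libraries, at 0.930 to 0.949 with C0 and at 0.887 to 0.905 with C1. The tests over all 12 libraries are therefore also given without both. All 4 leaf photosynthesis markers were found, and their summed level was 31387 to 41762 CPM in C0, 25056 to 68551 CPM in S0, 7995 to 15367 CPM in C1 and 1959 to 3847 CPM in S1. The xylem marker IRX3, a cellulose synthase of secondary walls, lay at 0.929 to 14.8 CPM in C0, C1 and S0 and at 249 to 285 CPM in S1. The 2 epidermal PDF1 genes summed to 7.73 to 27.0 CPM in C0, 55.3 to 364.1 CPM in C1, 1.14 to 11.6 CPM in S0 and 9.85 to 13.9 CPM in S1, where Eucgr.A01963 had no read. These marker levels move with the groups compared below, and their part in the aquaporin results was not tested. In bulk leaf RNA, fewer cells of a type and less RNA per cell cannot be told apart.

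PIP2F is encoded on scaffold 11, from 41215248 to 41217216 of the draft E. grandis genome. Its level in C0 was 32.8 CPM in Katherine, 32.8 in Mt Isa and 20.6 in Petford, on 64, 102 and 39 reads. In C1 it was 45.9, 45.0 and 46.3 CPM in the same order of populations. In S0 it was 78.3, 41.6 and 43.0 CPM, on 201, 73 and 203 reads. The 3 S1 libraries stood far above these, at 551, 431 and 449 CPM on 2687, 1119 and 2929 reads. The group means were 28.7 ± 7.04 CPM in C0, 45.7 ± 0.647 in C1, 54.3 ± 20.8 in S0 and 477 ± 64.8 in S1 (SD, n = 3 libraries). C1 and S0 overlapped, while C0 lay below both and S1 above all other libraries.

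GAMMA-TIP lies on scaffold 11 as well, from 31711280 to 31712923. Its level was 1256, 1038 and 967 CPM in the Katherine, Mt Isa and Petford C0 libraries. In C1 it was 1345, 1053 and 925 CPM, and in S0 it was 949, 1066 and 1253 CPM. In S1 it was 103, 95.2 and 112 CPM, on 502, 247 and 730 reads. Group means were 1087.2 ± 151 CPM in C0, 1108 ± 215 in C1, 1089 ± 154 in S0 and 103 ± 8.40 in S1 (SD, n = 3 libraries). The 3 groups without water deficit overlapped one another throughout, and S1 was below every one of their libraries.

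PIP1C lies on scaffold 4, from 32374787 to 32377551. It was counted at 195, 165 and 155 CPM in C0 and at 161, 134 and 199 CPM in S0, 2 groups that overlapped. The C1 libraries lay above both, at 281, 290 and 224 CPM. The S1 libraries were lowest, at 37.1, 34.7 and 32.1 CPM, on 181, 90 and 209 reads. Group means were 172 ± 20.4 CPM in C0, 265 ± 35.9 in C1, 165 ± 32.9 in S0 and 34.6 ± 2.55 in S1 (SD, n = 3 libraries). The spliced lengths of these transcripts are not given in the files, so levels are compared here between libraries and not between genes.

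**Figure D1:**
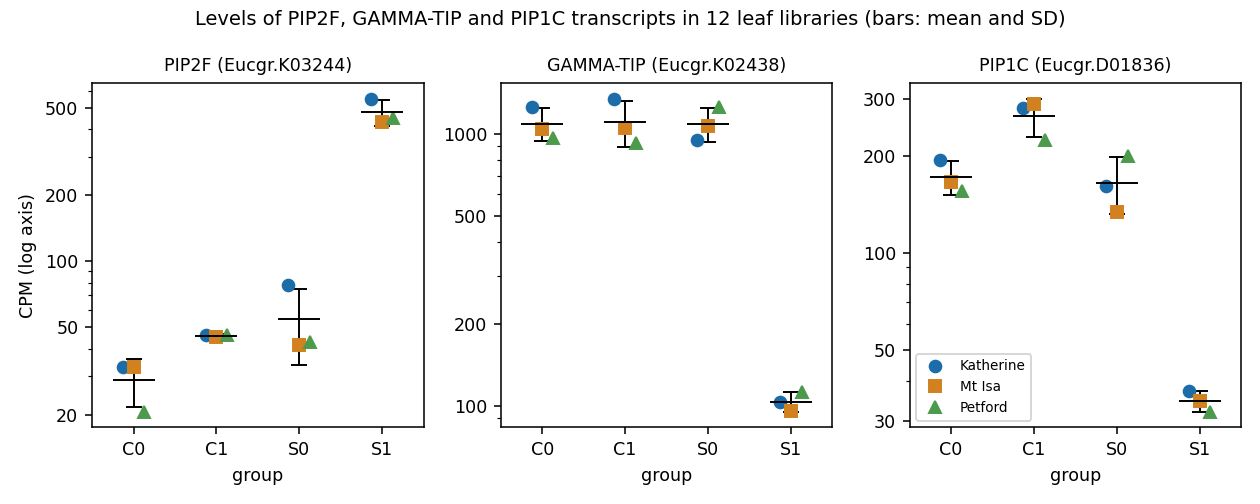
CPM on a log axis of PIP2F, GAMMA-TIP and PIP1C in the groups C0, C1, S0 and S1, with 1 symbol per library and population and bars for the mean and SD of 3 libraries. In S1, PIP2F sits between 431 and 551 CPM, above all other libraries, while GAMMA-TIP (95.2 to 112 CPM) and PIP1C (32.1 to 37.1 CPM) sit below all others.

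The comparison of C1 with S1 asks how leaves of stressed seedlings differed from leaves of watered seedlings at the end of the experiment. The study's table through which 10 of the 15 aquaporins were located, these 3 among them, holds only transcripts that the study had called in this comparison, so the directions here are not independent evidence. PIP2F was higher in S1 by 3.27 on the log2 scale (SE 0.18, 9.66-fold, adjusted p = 6.39e-07). GAMMA-TIP was lower, with a log2 fold change of -3.53 (SE 0.20, 11.5-fold, adjusted p = 8.70e-07). PIP1C was lower as well, at -3.04 (SE 0.18, 8.25-fold, adjusted p = 1.03e-06). All 3 were thus called, and their groups did not overlap, where 22.3% of the 40440 transcripts tested were called, 9.81% as higher and 12.5% as lower, and 47.9% had groups that did not overlap. Within populations the log2 ratio of PIP2F was 3.59 in Katherine, 3.26 in Mt Isa and 3.28 in Petford, and that of GAMMA-TIP was -3.71, -3.47 and -3.05. The ratio of PIP1C was -2.92, -3.06 and -2.80. Leaving out any 1 library gave fold changes from 3.17 to 3.32 for PIP2F, -3.66 to -3.41 for GAMMA-TIP and -3.17 to -2.98 for PIP1C, all still called.

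The comparison of S0 with S1 follows the same seedlings through water deficit and shares the S1 libraries with the comparison above. Seedling and leaf age changed over the same 2 months. PIP2F rose by 3.12 on the log2 scale (SE 0.25, 8.67-fold, adjusted p = 4.35e-06). GAMMA-TIP fell, at -3.43 (SE 0.21, 10.8-fold, adjusted p = 6.49e-07), and PIP1C fell at -2.29 (SE 0.21, 4.89-fold, adjusted p = 1.02e-05). The 3 members were called, with groups apart, among 40244 transcripts of which 19.2% were called, 8.85% as higher and 10.3% as lower, and 44.6% had groups that did not overlap. PIP2F rose least in Katherine, where S0 was highest, with log2 ratios of 2.82 in Katherine, 3.37 in Mt Isa and 3.39 in Petford. GAMMA-TIP ratios were -3.20, -3.49 and -3.48 in that order, and PIP1C ratios were -2.11, -1.95 and -2.64. With population as a block, which pairs the seedlings with themselves, 11872 transcripts were called in place of 7722, and the calls of the 3 members stood. The SE changed little, to 0.19 for PIP2F and to 0.18 for GAMMA-TIP and PIP1C. The adjusted p of PIP1C nevertheless fell from 1.02e-05 to 1.03295e-33 in edgeR's test. So small a value is not explained by the narrower error. The rise in calls therefore cannot be credited to pairing, and its cause was not tested.

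The comparison of C0 with C1 covers the same 2 months in watered seedlings. No member was called. PIP2F differed by 0.63 on the log2 scale (SE 0.21, 95% interval 0.18 to 1.08, adjusted p = 0.0737) and PIP1C by 0.59 (SE 0.17, interval 0.22 to 0.97, adjusted p = 0.0423), each with C1 above C0 in every library. GAMMA-TIP differed by -0.01 (SE 0.18, interval -0.41 to 0.39, adjusted p = 0.991), with overlapping groups. Of 36197 transcripts tested, 6.25% were called, 2.35% as higher and 3.9% as lower, and 27.3% had groups that did not overlap, as 2 of the 3 members did. With population as a block, PIP1C passed the threshold at 0.59 (SE 0.17, adjusted p = 0.00912), and the calls over all transcripts rose from 2263 to 4264. The estimate and SE of PIP1C were nearly the same as without the block, so the block did not narrow its error. Scaling by library totals moved the median of all transcripts from 0.05 to 0.34 and the higher calls from 37.6% to 63.2% of all calls. Under it both PIP2F (0.93, adjusted p = 0.00875) and PIP1C (0.90, adjusted p = 0.00437) passed.

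The S0 and C0 libraries were both taken before any treatment, so their comparison gives the background between 2 sets of seedlings. Only 0.191% of 36048 transcripts were called, 0.0888% as higher and 0.103% as lower in S0, and no member was among them. PIP2F was nevertheless above C0 in every S0 library, with a log2 difference of 0.89 (SE 0.27, interval 0.31 to 1.47, adjusted p = 0.453), and 10.9% of all transcripts had groups that did not overlap. GAMMA-TIP differed by -0.01 (SE 0.17, interval -0.38 to 0.35) and PIP1C by -0.07 (SE 0.18, interval -0.46 to 0.32). The difference of PIP2F between S0 and C0 was smaller than its rise from S0 to S1 in each population, at 1.26, 0.34 and 1.06 in Katherine, Mt Isa and Petford.

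The change in stressed seedlings minus the change in watered seedlings, (S1 - S0) - (C1 - C0), was fitted over all 12 libraries. It was 2.48 on the log2 scale for PIP2F (SE 0.34, adjusted p = 3.57e-05), -3.42 for GAMMA-TIP (SE 0.27, adjusted p = 6.68e-08) and -2.88 for PIP1C (SE 0.26, adjusted p = 3.85e-07). All 3 were called, against 10.7% of 43146 transcripts, 4.04% as higher and 6.68% as lower. The contrast contains C1 against S1, on which the 3 had been selected, so these calls are not independent evidence. Without the Mt Isa C1 and S0 libraries, an alternative chosen after the data were seen, the differences were 2.38, -3.42 and -2.88 with adjusted p of 2.83e-04, 9.30e-07 and 2.01e-06. For PIP2F the difference was 2.33 in Katherine, 2.92 in Mt Isa and 2.22 in Petford, and for GAMMA-TIP it was -3.30, -3.51 and -3.42. PIP1C gave -2.64, -2.76 and -3.16, so each member moved the same way in all 3 populations.

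Over the 12 libraries, with the group as a term, the populations differed in 1.18% of transcripts, and no member was among these. The largest difference between population coefficients was 0.44 on the log2 scale for PIP2F (Katherine over Petford, adjusted p = 0.381). It was 0.16 for GAMMA-TIP (adjusted p = 0.921) and 0.13 for PIP1C (adjusted p = 0.932), with Katherine highest and Mt Isa lowest for both. Without the Mt Isa C1 and S0 libraries these differences were 0.44 for Eucgr.K03244, 0.17 for Eucgr.K02438 and 0.14 for Eucgr.D01836, and again none was called.

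The other 12 listed aquaporins did not all move as the 3 members did. In C1 against S1, where 22.3% of all transcripts were called (9.81% higher, 12.5% lower), 4 of the 15 were called higher, 8 lower and 3 were not called. From S0 to S1, where 19.2% were called (8.85% higher, 10.3% lower), 5 were higher, 8 lower and 2 not called. Of the higher ones, the TIP3 genes Eucgr.K02339 and Eucgr.L03254 passed the minimum of 10 reads only through S1. Their direction was fixed by that filter, so their calls support nothing. The 10 genes located by coordinates had been selected on C1 against S1, and their median log2 fold change was -2.96 there (-0.04 over all transcripts) and -2.39 from S0 to S1 (0.02 over all transcripts). The 5 genes located by SNP position are those not found in the shortened copy of that table, so whether the study called them is not known here. The SNPs were listed by the study for a change in allele shares between S0 and S1. The choice of these 5 genes was thus not free of these comparisons either. Their median was -0.26 in C1 against S1, with 1 higher, 1 lower and 3 not called, and 0.19 from S0 to S1, with 2 higher, 1 lower and 2 not called. From C0 to C1, where 6.25% of all transcripts were called, 2 of 13 tested were called, both higher. Between C0 and S0, where only 0.191% of all transcripts were called, none of 13 was called by edgeR. Of these 13, only PIP2F had an unadjusted p under 0.05 (0.00571 by edgeR), and DESeq2 likewise called none of them. The share of all transcripts with an unadjusted p under 0.05 was not counted.

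Among plasma membrane aquaporins, the other PIP2 gene did not follow PIP2F. Eucgr.A01153 (PIP2B) had group means of 374 ± 154 CPM in C0, 626 ± 124 in C1, 435 ± 77.3 in S0 and 503 ± 75.8 in S1 (SD, n = 3 libraries). Its log2 fold change was -0.43 in C1 against S1 (SE 0.20, interval -0.87 to 0.02) and 0.19 from S0 to S1 (SE 0.19, interval -0.22 to 0.60), and neither was called. From C0 to C1 it differed by 0.72 (SE 0.25, adjusted p = 0.0991) and was called only with population as a block, at 0.77 (adjusted p = 7.73e-04).

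The 5 PIP1 genes went in several directions. Eucgr.G03037 (PIP1E) fell with PIP1C, at -2.88 in C1 against S1 (SE 0.22, adjusted p = 3.70e-06) and -3.26 from S0 to S1 (SE 0.19, adjusted p = 5.06e-07). Eucgr.J01087, a second PIP1E match, fell less, at -1.89 (SE 0.20, adjusted p = 3.20e-05) and -1.73 (SE 0.22, adjusted p = 1.02e-04). Eucgr.J00237 (PIP1B) was not called, at -0.26 (SE 0.17, interval -0.63 to 0.10) and -0.29 (SE 0.21, interval -0.74 to 0.16). Eucgr.E00628, the other PIP1B match, rose from S0 to S1 by 2.02 (SE 0.25, adjusted p = 1.02e-04) and also rose in watered seedlings, by 1.32 (SE 0.18, adjusted p = 3.76e-04). Its S1 libraries held 1004, 658 and 1200 CPM and its C1 libraries 597, 448 and 589 CPM, so the groups did not overlap, but the log2 fold change of 0.70 (SE 0.23, adjusted p = 0.0354) was not called. Without the Mt Isa S1 library it was called at 0.89 (adjusted p = 0.00843), and it was also called at 0.81 with all 12 libraries in the fit. The change in stressed minus watered seedlings was 0.70 for this gene (SE 0.32, adjusted p = 0.148) and was not called. PIP genes are similar in sequence and the treatment of reads that map to several places is not given in the sources used here, so the split of reads among them is uncertain.

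Of the other tonoplast genes, Eucgr.C02914 (TIP4;1) fell with GAMMA-TIP and further. Its S0 libraries held 75.5, 55.2 and 55.7 CPM and its S1 libraries 3.90, 1.54 and 2.61 CPM, on 19, 4 and 17 reads, with a log2 fold change of -4.48 (SE 0.29, adjusted p = 8.05e-07). In C1 against S1 it was -3.86 (SE 0.35, adjusted p = 1.36e-05). A further 3 genes matched the TIP3 class, which in Arabidopsis belongs to the protein storage vacuoles of seeds. Eucgr.K02339 (ALPHA-TIP) had no read in C0 or S0, 1 read in C1 and 117, 22 and 91 reads in the S1 libraries. Its pooled ratio of S1 to C1 was 141, with a 95% Clopper-Pearson interval of 25.0 to 5578 that covers counting error only, and it was at least 49.6-fold higher in S1 than in S0, taking 3 reads for the whole S0 group as the floor. Eucgr.L03254 (BETA-TIP) had 58, 24 and 80 reads in S1 and none in any other library, which is at least 33.0-fold above C1 and at least 34.9-fold above S0. Both genes passed the read minimum only through S1, so these ratios only describe their reads. Eucgr.I01369, also best matched by ALPHA-TIP, was read in all groups and went the other way, at -2.71 in C1 against S1 (SE 0.49, adjusted p = 0.00141) and -2.56 from S0 to S1 (SE 0.45, adjusted p = 0.00119). It was the only one of the 15 called among populations, with Petford above Mt Isa by 1.03 (adjusted p = 6.36e-04), and without the Petford S1 library it missed the threshold at 0.79 (adjusted p = 0.0167). Without the Mt Isa C1 and S0 libraries it was called at 1.02 (adjusted p = 9.80e-04).

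NIP5;1 is a boric acid channel in Arabidopsis, and its match Eucgr.D02548 fell, with log2 fold changes of -3.14 in C1 against S1 (SE 0.36, adjusted p = 6.29e-05) and -2.50 from S0 to S1 (SE 0.26, adjusted p = 2.26e-05). The small basic intrinsic proteins (SIPs) are found in the endoplasmic reticulum in Arabidopsis, and their 2 matches moved apart. Eucgr.A02066 (SIP1B) held 63.9 to 86.4 CPM in C0, C1 and S0 and 328, 243 and 324 CPM in S1, and rose by 1.95 (SE 0.18, adjusted p = 1.64e-05) in C1 against S1 and by 1.82 (SE 0.19, adjusted p = 2.06e-05) from S0 to S1. CUFF.1060 (SIP1A) rose in watered seedlings from 18.6 ± 3.87 to 60.1 ± 14.3 CPM (SD, n = 3 libraries), a change of 1.68 (SE 0.23, adjusted p = 3.94e-04), and stood at 6.73 ± 1.83 CPM in S1. It was lower in S1 than in C1 by a log2 fold change of -3.24 (SE 0.25, adjusted p = 4.24e-06). From S0 to S1 it was called at -1.51 (SE 0.33, adjusted p = 0.00449), but not without the Katherine S0 (-1.15), Petford S0 (-1.66), Mt Isa S1 (-1.41) or Petford S1 library (-1.41).

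**Figure D2:**
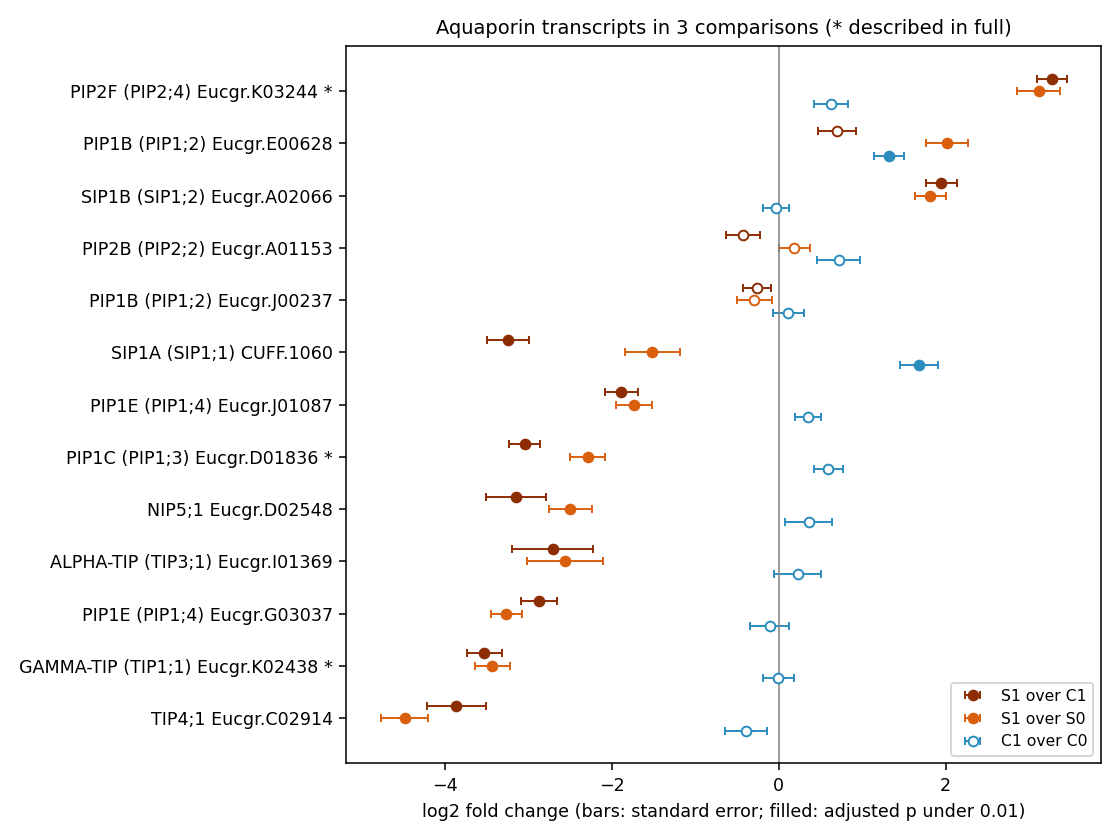
Log2 fold changes of 13 aquaporins in 3 comparisons, with standard errors as bars and filled symbols for an adjusted p under 0.01; the 2 TIP3 genes with no read in most groups are left out. S1 over C1 and S1 over S0 share the S1 libraries, and in both PIP2F lies above 3 while GAMMA-TIP lies below -3.

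The difference of changes could be estimated for 13 of the 15, of which 2 were called higher (PIP2F and SIP1B), 8 lower and 3 not at all, where 10.7% of all transcripts were called, 4.04% higher and 6.68% lower. This contrast contains S1 against C1, on which the genes located by coordinates had been selected. The median of the 8 of these that could be estimated was -3.02, that of the 5 genes located by SNP position was -0.41 and that of all transcripts was -0.04. The largest in size was that of TIP4;1, at -4.08 (SE 0.41, adjusted p = 1.36e-06), ahead of GAMMA-TIP.

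**Figure D3:**
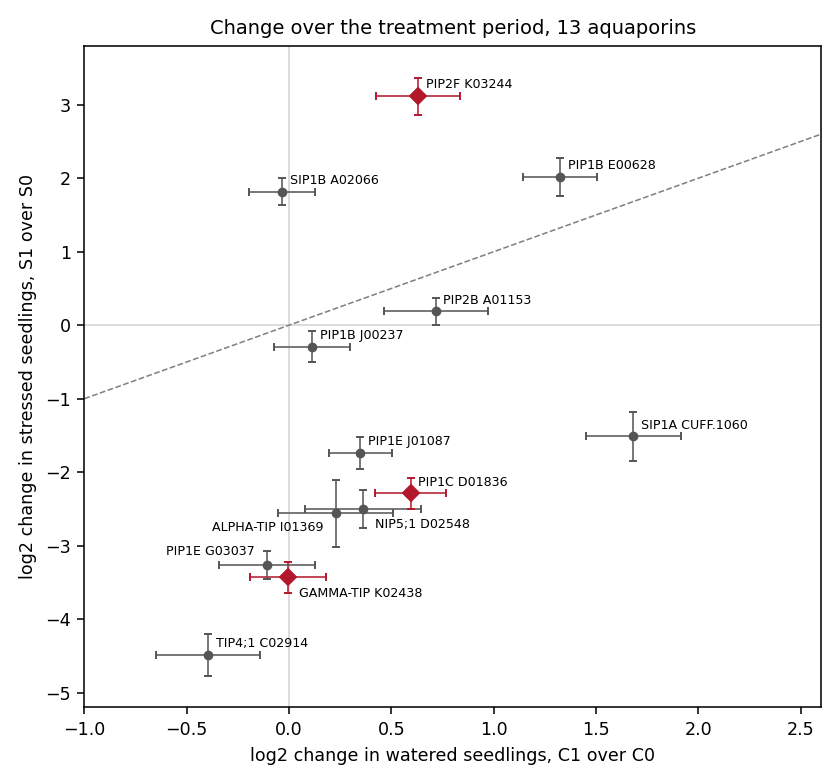
Log2 change in stressed seedlings (S1 over S0, vertical) against that in watered seedlings (C1 over C0, horizontal) for 13 aquaporins, with standard errors as bars, the 3 members in red and a dashed line of equal change. PIP2F (0.63 watered, 3.12 stressed) lies above the line, and GAMMA-TIP (-0.01, -3.43) and PIP1C (0.59, -2.29) lie below it.

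The number of PIP2F reads for each GAMMA-TIP read differed between S1 and the other libraries. For every 100 reads of GAMMA-TIP there were 2.13 to 3.16 reads of PIP2F in the C0 libraries, 3.41 to 5.005 in C1 and 3.43 to 8.25 in S0. In S1 there were 535 in Katherine, 453 in Mt Isa and 401 in Petford. PIP1C and GAMMA-TIP fell more nearly together, with 12.6 to 16.9 reads of PIP1C per 100 of GAMMA-TIP in S0 and 28.6 to 36.4 in S1. There were 15.5 to 16.1 in the C0 libraries and 20.9 to 27.5 in C1. These are ratios of reads and do not account for transcript length.

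The 15 aquaporins together held 3920 ± 287 CPM in C0, 5025 ± 196 in C1, 4401 ± 361 in S0 and 3239 ± 472 in S1 (SD, n = 3 libraries), and the highest S1 library (3645 CPM) overlapped only C0, whose lowest held 3607 CPM. PIP2F made up 0.911% ± 0.02 of the reads of these 15 genes in C1 and 14.9% ± 2.23 in S1. GAMMA-TIP went from 22.1% ± 4.51 to 3.21% ± 0.24, and PIP1C from 5.29% ± 0.90 to 1.09% ± 0.20. In S1 the largest share of reads among the 15 was that of PIP1B Eucgr.E00628, at 29.0% ± 4.45, where it had 10.8% ± 1.36 in C1. Shares of reads do not account for transcript length. Since 10 of the 15 genes were located through a table selected on C1 against S1, the sums and shares carry that selection.

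**Figure D4:**
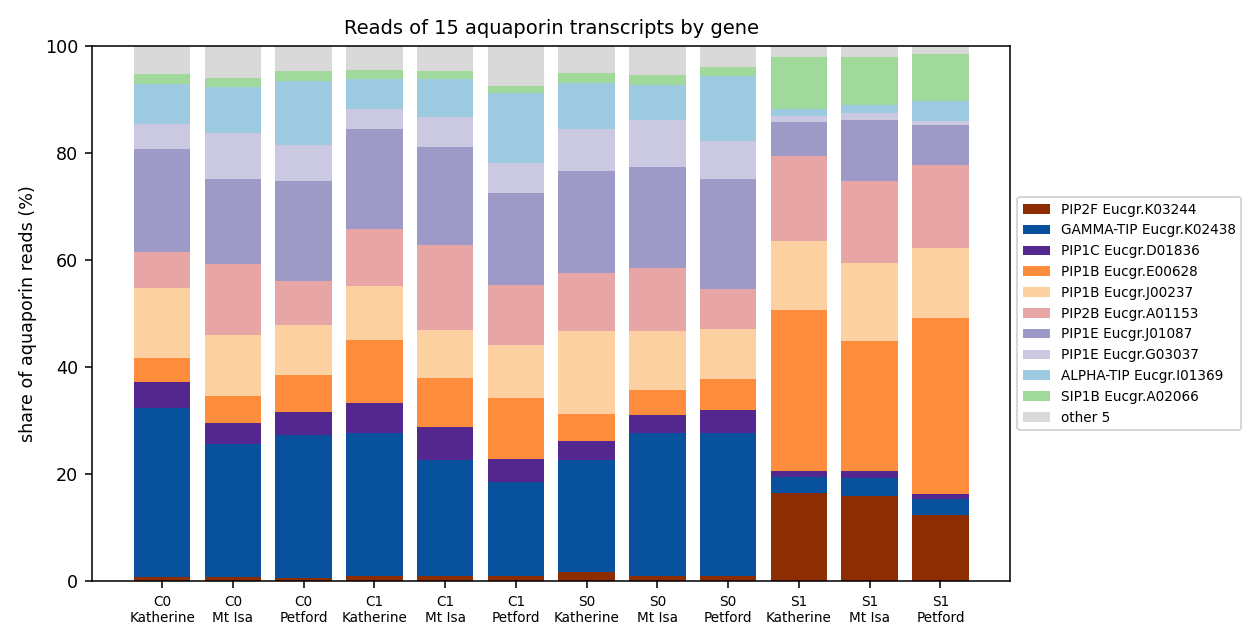
Share of the reads of 15 aquaporin transcripts taken by each gene, in percent, with 1 bar per library ordered by group. GAMMA-TIP takes 17.7% to 31.5% in the 9 libraries of C0, C1 and S0 and 3.07% to 3.497% in S1, while PIP2F takes 12.3% to 16.5% in S1.

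Over the 12 libraries the log2 CPM of PIP2F had Pearson's r of -0.96 with GAMMA-TIP and -0.91 with PIP1C, and GAMMA-TIP had r = 0.96 with PIP1C. These r are descriptions, since the libraries fall into the same 4 groups and S1 stands apart for all 3 genes. Of 1912 named transcripts with a mean of at least 10 CPM, the pattern most like that of PIP2F was Eucgr.D02206, a zinc-binding PLATZ transcription factor (r = 0.990), at 15.98 CPM in C1 and 186 CPM in S1. It was followed by the transcription regulator Eucgr.K02871 (r = 0.988) and by Eucgr.H01519, a match of the Arabidopsis F-box gene EDL3 (r = 0.988). For GAMMA-TIP the nearest were Eucgr.B03715 of the gibberellin-regulated family, the tubulin gene Eucgr.F00470 (TUA6) and Eucgr.F02480, which has no description and overlaps another transcript, each with r = 0.993. The tubulin held 716 CPM in C1 and 122 CPM in S1. For PIP1C they were the aspartyl protease Eucgr.G03227 (r = 0.993), Eucgr.J01214 (r = 0.990), a match of the auxin transporter ABCB19, and the pectin lyase-like Eucgr.K02440 (r = 0.990), which had no read in S1. The table from which most of these names came was selected on C1 against S1, so patterns with a large difference there are over-represented.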

How the data were processed

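Leaf RNA of 12 bulks was sequenced as single-end reads of 65 bases. The authors mapped the reads to the draft E. grandis genome with TopHat and Bowtie, built transcript models on all reads together with Cufflinks and no annotation, and deposited raw read counts per transcript obtained with BEDTools. The sources used here give no program version, no genome release and no use of strand. Of 43425 transcripts, 245 repeated another and were used once. No genome was used, and no other series' columns were present. The 3 members and the 15 aquaporins, taken from the study's annotation tables by the words intrinsic protein, aquaporin or water channel, were chosen with earlier results of these data known. Of the 15, 10 were located by coordinates and 5 by SNP position.

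The tests ran in R 4.3.3 with edgeR 4.0.16, which loads limma 3.58.1 (TMM, quasi-likelihood F test, 2-sided, at least 10 reads over the libraries of a fit, Benjamini-Hochberg adjusted p under 0.01), with DESeq2 1.42.0 as an alternative. Standard errors were derived from the F statistic and the fold change, which can understate the error of genes with few reads, and intervals are at 95%. Groups hold 3 populations as replicates, without a block. Same-numbered libraries of S0 and S1 and of C0 and C1 hold the same seedlings, and their deviations from group means correlated at 0.194 to 0.307 and 0.225 to 0.246, so an alternative fit took population as a block. The other alternatives were DESeq2 size factors, library totals, a minimum of 1 read, edgeR's exact test, all 12 libraries in the fit and each library left out. All named genes were fixed by rule: the members, all 15 aquaporins, the 3 named transcripts of highest r with each member and the nearest transcript on each side. On simulated data at these depths, C1 against S1 recovered 61 of 100 transcripts given a 4-fold change and 6 of 100 given a 2-fold change. S0 against S1 recovered 57 and 2, and C0 against C1 recovered 73 and 11. Only these transcripts were changed among 40440 in C1 against S1, where the real comparison called 22.3%. The adjusted p threshold was thus harder to pass in the simulation.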

Additional observations from a re-analysis of the deposited data

Results flagged for a closer look

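The change from start to end differed between stressed and watered seedlings, by the test of the difference itself, for 10 of the 13 aquaporins in which it could be estimated, where 10.7% of all 43146 transcripts were called. Of the 13, 8 were located through a table that holds only transcripts the study had called in C1 against S1, which this contrast contains. It was 2.48 for PIP2F, -3.42 for GAMMA-TIP and -2.88 for PIP1C on the log2 scale. Among the other PIP genes it was -3.16 for Eucgr.G03037 and -2.09 for Eucgr.J01087, both matches of PIP1E. For Eucgr.C02914 (TIP4;1) it was -4.08, for Eucgr.I01369 (ALPHA-TIP) -2.76 and for Eucgr.D02548 (NIP5;1) -2.87. The SIP genes differed in opposite directions, with -3.19 for CUFF.1060 (SIP1A) and 1.85 for Eucgr.A02066 (SIP1B).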

How the results depend on the processing

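The 3 members kept their direction and their call in C1 against S1, S0 against S1 and the difference of changes under every alternative run, with ranges over settings other than left-out libraries of 3.14 to 3.38, -3.67 to -3.42 and -3.19 to -2.93 for PIP2F, GAMMA-TIP and PIP1C in C1 against S1 and of 3.06 to 3.33, -3.47 to -3.21 and -2.33 to -2.05 in S0 against S1. The replicate block raised the calls over all transcripts from 7722 to 11872 in S0 against S1, from 2263 to 4264 in C0 against C1 and from 69 to 207 in C0 against S0. In C1 against S1 and C0 against S0 libraries share only a population, with correlations of deviations of 0.0517 to 0.143 and 0.0874 to 0.125, and the block called 10071 in place of 9020 in the former. It also called Eucgr.E00628 in C1 against S1 (0.67, adjusted p = 0.00701), PIP1C (0.59) and Eucgr.A01153 in C0 against C1, and changed no other call of the 15. Values near 0 changed sign in the 2 comparisons without stress, and none of these was called. With library totals these were, in C0 against C1, GAMMA-TIP (0.30), Eucgr.G03037 (0.19) and Eucgr.A02066 (0.27), while PIP2F (0.93) and PIP1C (0.90) gained a call, and, in C0 against S0, Eucgr.E00628 (-0.076), Eucgr.I01369 (-0.048) and CUFF.1060 (-0.13). CUFF.1060 also turned with the block there (-0.023), and missed its call in S0 against S1 with library totals (-1.30). GAMMA-TIP turned with a minimum of 1 read (0.0053 in C0 against C1 and 0.000148 in C0 against S0) and with all 12 libraries in the fit (0.027 and 0.0032).

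Leaving out 1 library gave, in C0 against C1, 1124 to 2410 calls, -0.15 to 0.12 for GAMMA-TIP, -0.30 to 0.17 for Eucgr.G03037, -0.053 to 0.24 for Eucgr.J00237, -0.25 to 0.47 for Eucgr.I01369, -0.11 to 0.58 for Eucgr.D02548 and -0.089 to 0.054 for Eucgr.A02066. In C0 against S0 it gave 28 to 148 calls, -0.12 to 0.10 for GAMMA-TIP, -0.23 to 0.023 for PIP1C, -0.069 to 0.22 for Eucgr.E00628, -0.016 to 0.37 for Eucgr.J00237, -0.18 to 0.35 for Eucgr.I01369 and -0.31 to 0.19 for CUFF.1060. In C0 against S0, DESeq2 called 138 transcripts, edgeR's exact test 173 and the fit over 12 libraries 104, in place of 69, and among populations DESeq2 called 332 in place of 510. Library totals moved the median of all transcripts to -0.18 in C1 against S1, 0.25 in S0 against S1 and -0.13 in C0 against S0, and the share of higher calls from 46.1% to 58.5% in S0 against S1. The cause of these differences was not tested. In the simulated data a 2-fold change was mostly not called with 3 libraries per group. Those data held few changed transcripts, so the adjusted p threshold was harder to pass than in the comparisons with stress. They therefore set no limit of detection for the aquaporins.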

Other observations

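The transcripts beside the 3 members did not all move with them. The nearest before PIP2F, 175 bases away, has no name and had 15 reads, all in S1 (adjusted p = 0.0449 in C1 against S1). It passed the read minimum only through S1, so its direction was fixed by that filter and its p-value supports nothing. CUFF.10159, 5665 bases after PIP2F, was lower in S1 with a log2 fold change of -5.08 (adjusted p = 1.38e-04). It had 123 reads in C1 and 6 in S1. Before GAMMA-TIP, 26128 bases away, an unnamed transcript had 32 reads in C1 and 26 in S1 (adjusted p = 0.159), and the one 55 bases after it had between 2 and 7 reads in each group. Before PIP1C, 2973 bases away, Eucgr.D01835 differed by -0.31 (adjusted p = 0.196), and CUFF.22704, 16778 bases after it, was lower in S1 at -3.43 (adjusted p = 1.94e-04). CUFF.10159 and CUFF.22704 have names because the study had called them in C1 against S1, so their directions there are not independent evidence. In that comparison 22.3% of all transcripts tested were called. The neighbours were read only as the nearest transcripts and no relation to the members was tested.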
